A study of Mus musculus with 44 samples.

Results

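Choroid plexus marker genes are described here: 10 genes, Ttr, Folr1, Enpp2, Kl, Clic6, Aqp1, Kcnj13, Otx2, Prlr and Epn3, of 55335 genes in the count table of hippocampal TRAP-seq libraries. Each was found by matching its Ensembl identifier to its symbol in the GENCODE annotation of GRCm38, and all 10 had a row. They were selected because their levels rose and fell together across these libraries and because several were lower after exercise, so their covariation and their exercise differences are given below as descriptions without a test.

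The libraries came from the hippocampus of male Emx1-NuTRAP mice. In these mice Cre recombinase expressed from Emx1 switches on the NuTRAP reporter, which tags ribosomes and nuclei, mostly in excitatory neurons, and TRAP captures mRNA bound to the tagged ribosomes. Early-life exercise (ELE) mice could run on a cage wheel between postnatal days 21 and 41, and sedentary mice were housed without one. All animals of both groups carried the same Cre and reporter. In simultaneous isolation (SIT) both hippocampi of a mouse were combined and gave nuclei and ribosome-bound RNA, with 4 ELE and 4 sedentary libraries. In separate isolation 1 hippocampus gave RNA, with 3 ELE and 3 sedentary libraries from the left side and 3 and 3 from the right. The sample labels call the cells neurons, and the 6 excitatory neuron markers checked (Slc17a7, Neurod6, Camk2a, Neurod2, Emx1 and Nrgn) were detected in all 20 libraries. Each library came from 1 mouse, named below by its number in the count table.

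The choroid plexus is a folded epithelium that hangs in the ventricles, the lateral ones lying against the hippocampus, and secretes cerebrospinal fluid. Its cells make very large amounts of transthyretin mRNA and carry water channels, ion transporters and folate uptake proteins on a polarised surface. Hippocampal pyramidal neurons are not known for expressing most of these genes, and for that reason they are often read as signs of tissue carried along in a dissection.

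Library depth lay between 45895097 and 65767802 counts. Levels are given as CPM, counts scaled to a common library size, with TMM factors applied. The study compared 3 ELE and 2 sedentary SIT libraries, and the SIT libraries of NT6.304 (ELE), NT7.2.3 and NT7.2.4 (both sedentary) were not among them. The share of mitochondrial genes was 8.64% in NT7.2.3, 9.64% in NT7.2.4 and at most 0.523% in any other library. Within the SIT libraries, mice numbered TG7.4 were all ELE and mice numbered NT7.2 all sedentary, so for those mice exercise and this part of the number cannot be told apart.

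The start of Kcnj13 is shown because this gene, which encodes the inwardly rectifying potassium channel Kir7.1 of the choroid plexus surface, went from 0 counts to over 100 counts between libraries. That of Kl, the klotho gene, is shown beside it because Kl kept a level in every library. Each is the 250 bases before the gene's start, 5′ to 3′ on the gene's strand, from RefSeq on GRCm38.p6, with capitals marking TAATC or GATTA, the core that OTX homeodomain factors bind, read on either strand. Kcnj13 lies on the minus strand of chromosome 1, and its start falls inside the gene Gigyf2 on the other strand, while Kl lies on the plus strand of chromosome 5.
Kcnj13, chr1:87394730-87394979: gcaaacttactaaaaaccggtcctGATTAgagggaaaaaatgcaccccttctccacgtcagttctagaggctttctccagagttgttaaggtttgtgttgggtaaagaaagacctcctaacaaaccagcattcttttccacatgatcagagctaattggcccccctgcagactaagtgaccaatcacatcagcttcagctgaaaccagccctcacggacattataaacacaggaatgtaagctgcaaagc
Kl, chr5:150952357-150952606: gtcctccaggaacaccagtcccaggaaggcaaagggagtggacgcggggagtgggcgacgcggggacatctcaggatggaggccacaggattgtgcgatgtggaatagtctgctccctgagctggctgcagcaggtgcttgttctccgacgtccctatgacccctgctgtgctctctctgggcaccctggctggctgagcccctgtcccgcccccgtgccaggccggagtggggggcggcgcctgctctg
The Kcnj13 window held 1 match, beginning 226 bases before the start, and the Kl window held 0. Start regions were examined for 5 of the 10 markers (Kl, Aqp1, Kcnj13, Otx2 and Prlr), with 10 starts in all. Of these 5 genes, 2 held a match, Kcnj13 and Otx2. The start regions of the other markers, Ttr among them, were not examined. Of 27025 genes with a start region, 22.3% held one. A match is a run of letters and was not tested as a binding site.

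Ttr encodes transthyretin, a carrier of thyroid hormone, and is the most abundant epithelial transcript of the choroid plexus. In SIT ELE libraries its level was 108 CPM (NT6.303), 201 (TG7.4.1), 255 (NT6.304) and 530 CPM (TG7.4.2). In SIT sedentary libraries it was 480 (NT7.2.3), 528 (NT6.305), 619 (NT6.306) and 962 CPM (NT7.2.4). The SIT libraries formed a continuous run, with TG7.4.2 inside the sedentary range.
The separate libraries did not. Left ELE libraries had 2.85 (TG9.1.4), 34.8 (TG9.2.2) and 889 CPM (TG7.3.2) of Ttr, and left sedentary libraries 12 (TG9.2.4), 943 (TG7.3.4) and 1164 CPM (TG9.1.2). Right ELE libraries had 2.25 (TG9.1.3), 7.96 (TG9.2.1) and 19.6 CPM (TG7.3.1), and right sedentary libraries 13.2 (TG7.3.3), 55.4 (TG9.1.1) and 1067 CPM (TG9.2.3). Between 55.4 and 889 CPM no separate library was found, a gap of 16.0-fold, with 8 libraries below it and 4 above. The 4 above were 2 left sedentary, 1 left ELE and 1 right sedentary library, so both exercise groups and both sides were among them. Over all 20 libraries Ttr spanned 517-fold in CPM, from 2.25 to 1164.

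**Figure D1:**
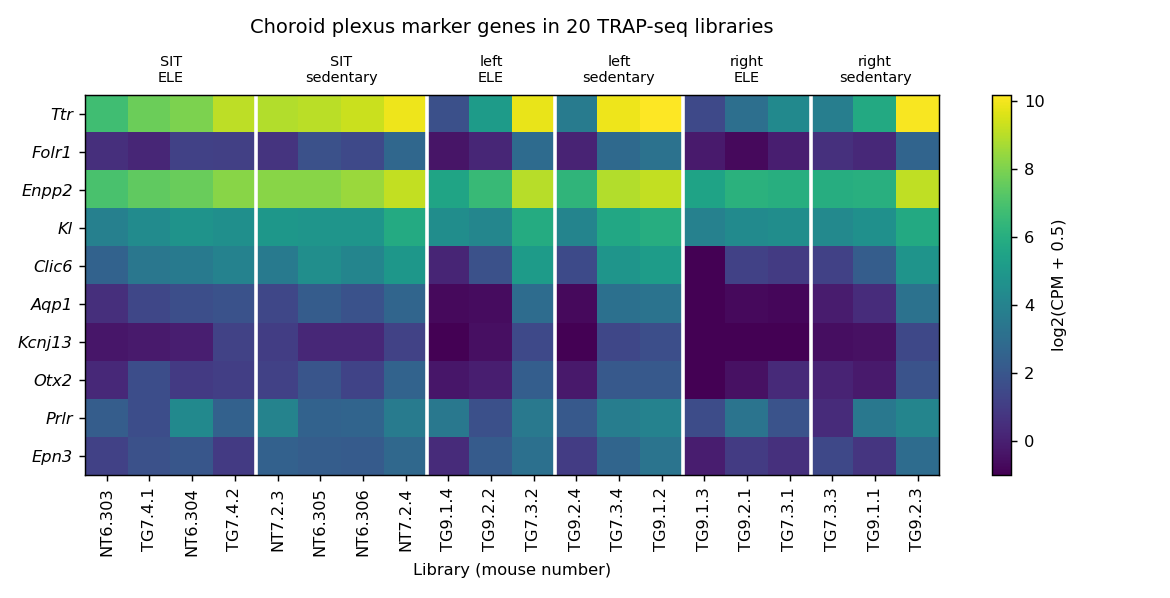
Level of the 10 choroid plexus marker genes (rows) in each of the 20 TRAP-seq libraries (columns, by mouse number), as log2(CPM + 0.5) in colour, with libraries grouped by isolation or hemisphere and exercise and ordered by Ttr within a group. TG7.3.2, TG7.3.4, TG9.1.2 and TG9.2.3 are the 4 separate libraries with Ttr between 889 and 1164 CPM. Each other gene is higher in these 4 than in any of the remaining separate libraries. All genes share 1 colour scale, so genes of low level stay dark even there.

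Compared per kilobase of exon, Ttr reached 982 CPM per kb in TG9.1.2. Of the excitatory neuron genes, Camk2a reached 704 and Slc17a7 813 CPM per kb at most. Nrgn stayed above the highest Ttr, at 1870 to 3536 CPM per kb. In TG9.1.3 Ttr was at 1.90 CPM per kb, below Emx1 itself, whose lowest level was 6.23 CPM per kb. Next after Ttr came Enpp2 with at most 98.4 CPM per kb, then Clic6 with 9.2, Kl with 6.66, Folr1 with 3.77, Aqp1 with 3.42, Epn3 with 2.31, Kcnj13 with 2.15, Otx2 with 1.3 and Prlr with 1.25 CPM per kb. These are single highest libraries, so neighbours close in this order are not shown to differ. Together the 10 genes took 0.0265% to 0.154% of all counts in the SIT libraries and 0.00645% to 0.185% in the separate ones. Ttr made up 57.9% to 62.0% of that in the 4 high separate libraries and 3.45% in TG9.1.4.

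Enpp2 encodes autotaxin, a secreted enzyme that makes lysophosphatidic acid, and is made by choroid plexus and by oligodendrocytes. It had 125, 172, 197 and 291 CPM in SIT ELE libraries and 293, 296, 366 and 569 CPM in SIT sedentary ones. In the separate libraries above the Ttr gap it had 477 to 568 CPM. In the other 8 it had 44.3 to 93.2 CPM, so that Enpp2 was at 44.3 CPM or more where Ttr was as low as 2.25 CPM. Kl, a coreceptor of fibroblast growth factor 23, showed the same form with a higher share left, at 51.5 to 62.2 CPM in those 4 libraries and 14.6 to 23.7 CPM in the other 8. Its lowest level of all, 14.0 CPM, was in the SIT ELE library NT6.303.

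The transport genes were also lower in the other 8 libraries. Clic6, a chloride intracellular channel, had 27.3 to 36.0 CPM in the 4 high libraries and 0 to 4.40 CPM in the other 8. Aqp1, the water channel of the epithelium's ventricular face, had 7.23 to 8.99 CPM against 0 to 0.835 CPM, and Kcnj13 had 2.13 to 2.73 CPM against 0 to 0.204 CPM. Folr1, the folate receptor that passes folate into cerebrospinal fluid, had 5.64 to 8.67 CPM against 0.107 to 0.985 CPM. TG9.1.3 had 0 counts of Clic6, Aqp1, Kcnj13 and Otx2, and Kcnj13 was at 0 counts in 5 of the 20 libraries. At that library's depth, 0 counts allow up to 3 counts, and this covers counting error only.

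Otx2, a homeodomain factor that choroid plexus epithelium needs, had 3.14 to 4.57 CPM in the 4 high libraries and 0 to 0.744 CPM in the other 8. Epn3, an epsin of clathrin-coated vesicles, had 5.76 to 9.39 CPM against 0.442 to 4.07 CPM. Prlr, the prolactin receptor, was the least tied to Ttr. It had 11.1 to 16.4 CPM in the 4 high libraries and 0.788 to 10.6 CPM in the other 8, where TG9.1.4 with 2.85 CPM of Ttr had 10.52 CPM of Prlr and TG7.3.3 with 13.2 CPM of Ttr had 0.788. Its highest level, 19.2 CPM, was in the SIT ELE library NT6.304. All 10 genes were higher in each of the 4 libraries than in any of the other 8 separate ones. The 4 were set apart by Ttr itself, and the genes were selected for rising and falling together. The share of all genes with this order was not computed, so nothing is read from the count.

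**Figure D2:**
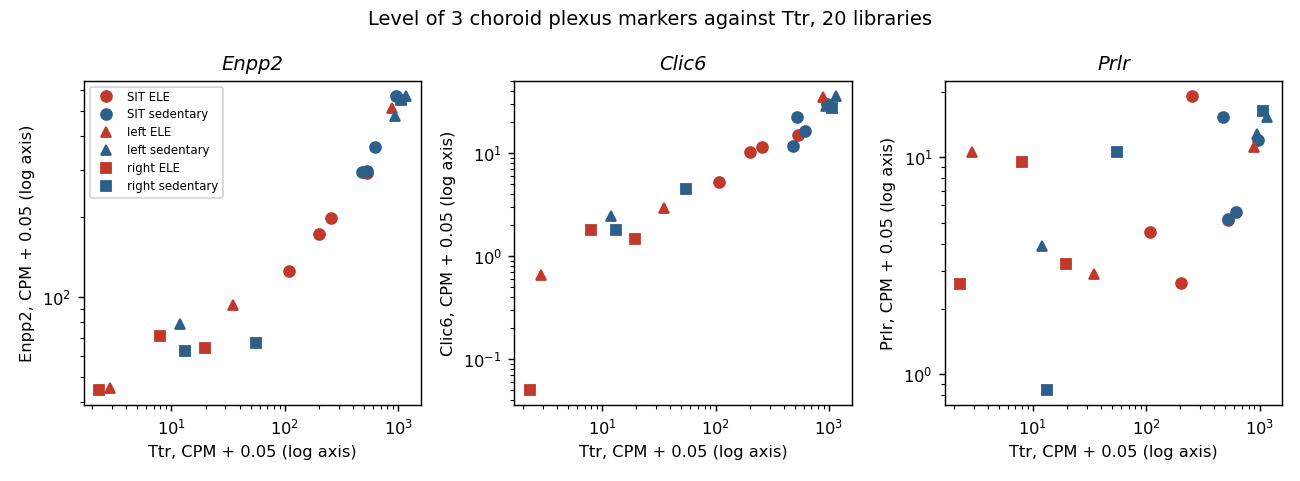
Level of Enpp2, Clic6 and Prlr (vertical, CPM + 0.05, log axis) against Ttr (horizontal, CPM + 0.05, log axis) in the 20 libraries, with circles for SIT, triangles for left and squares for right, red for ELE and blue for sedentary. Enpp2 levels off at 44.3 to 93.2 CPM in the 8 separate libraries with little Ttr, Clic6 falls with Ttr down to 0, and Prlr scatters.

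To set the genes on a common scale, the level in TG9.1.3, the library with the least Ttr, was subtracted and the rest expressed per 100 CPM of Ttr above the level there. In the 4 high separate libraries Enpp2 came to 47.8 ± 3.46 CPM per 100 CPM of Ttr (SD, n = 4), Kl to 4.16 ± 0.50, Clic6 to 3.16 ± 0.582, Aqp1 to 0.822 ± 0.0419 and Kcnj13 to 0.230 ± 0.0184. Epn3 came to 0.709 ± 0.136 and Otx2 to 0.387 ± 0.0985, ranging from 0.295 to 0.516, so the ratio to Ttr, against its mean, varied least for Aqp1, Enpp2 and Kcnj13 and most for Otx2 in these 4 libraries. In the 8 SIT libraries the same quantity was 56.8 ± 9.84 for Enpp2 (SD, n = 8), 3.73 ± 1.09 for Clic6, 0.740 ± 0.247 for Aqp1 and 0.221 ± 0.0868 for Kcnj13, overlapping the separate values with a wider spread. Folr1 had 0.370 ± 0.185 in SIT libraries and 0.652 ± 0.113 in the 4 separate ones, and Kl had 2.63 ± 1.64. Prlr ran from 0.0149 to 6.6 in SIT libraries and from 0.966 to 1.3 in the 4 separate ones.

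Because the separate libraries fell into 2 sets, the correlations between markers are given within sets of libraries. Over the 8 SIT libraries Pearson's r between the log2(CPM + 0.5) of 2 of these genes had a median of 0.72 over the 45 pairs and ranged from 0.06 to 0.99. With Ttr it was 0.98 for Enpp2, 0.92 for Clic6, 0.88 for Aqp1, 0.88 for Kl, 0.79 for Kcnj13, 0.78 for Folr1, 0.72 for Otx2, 0.59 for Epn3 and 0.33 for Prlr. Over the 8 separate libraries below the gap the median of the 45 pairs was 0.48 with a range from -0.62 to 0.90, and r with Ttr was 0.90 for Clic6, 0.76 for Enpp2, 0.36 for Kl and -0.01 for Prlr. All values within a library share its depth and its scaling, and many of the lower ones rest on under 50 counts.

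Genes whose pattern was most like the 10 markers were found by Pearson's r between log2(CPM + 0.5) and the mean of the markers' standardised levels over the 20 libraries, among 19908 other genes. This r spans both sets of separate libraries and the SIT libraries, and it is given as a description only. The 15 highest, with r from 0.91 to 0.98, were Tmem72, Slc4a5, Kcne2, F5, Mfrp, Col8a1, Wdr86, 1500015O10Rik, Cldn2, Rbm47, Ace, Sostdc1, Prr32, Slc13a4 and St6galnac2. Of these, 10 stood on a list of 26 other choroid plexus genes, and 24 of the 26 were among the 100 highest. The list holds, for example, Slc4a5, a sodium bicarbonate transporter, Kcne2, a potassium channel subunit, and Cldn2, a tight junction protein of leaky epithelia. Slc4a5 ranged from 0 to 13.5 CPM, Kcne2 from 0 to 6.54 CPM and Tmem72, a membrane protein, from 0.0152 to 14.5 CPM. Car12, a carbonic anhydrase on the list but outside those 100, had r of 0.05 and peaked at 165 CPM in NT6.304. In the separate libraries 22 of the 26 were higher in each of the 4 libraries than in any of the other 8. The share of all genes with this order was not computed, so this count is given as a description only.

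Markers of other cells did not set the same libraries apart. The summed level of 7 ependymal genes was 29.6 to 48.7 CPM in the 4 high separate libraries and 21.2 to 38.7 CPM in the other 8. For 10 meningeal genes it was 25.4 to 46.8 against 11 to 50.7 CPM, and for 6 endothelial genes 3.10 to 4.74 against 1.36 to 28.4 CPM. For 5 thalamic genes it was 41.6 to 57.0 against 35.5 to 65.3 CPM, and for 5 striatal genes 16.2 to 18.8 against 14.7 to 31.5 CPM. The 5 red cell genes summed to 4.34 to 8.88 CPM against 2.42 to 11.5 CPM, and the 6 excitatory neuron genes to 11174 to 13736 CPM against 11648 to 14068 CPM. In each of these lists the ranges overlapped, and every gene of them exceeded 3 counts in at least 1 library.

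**Figure D3:**
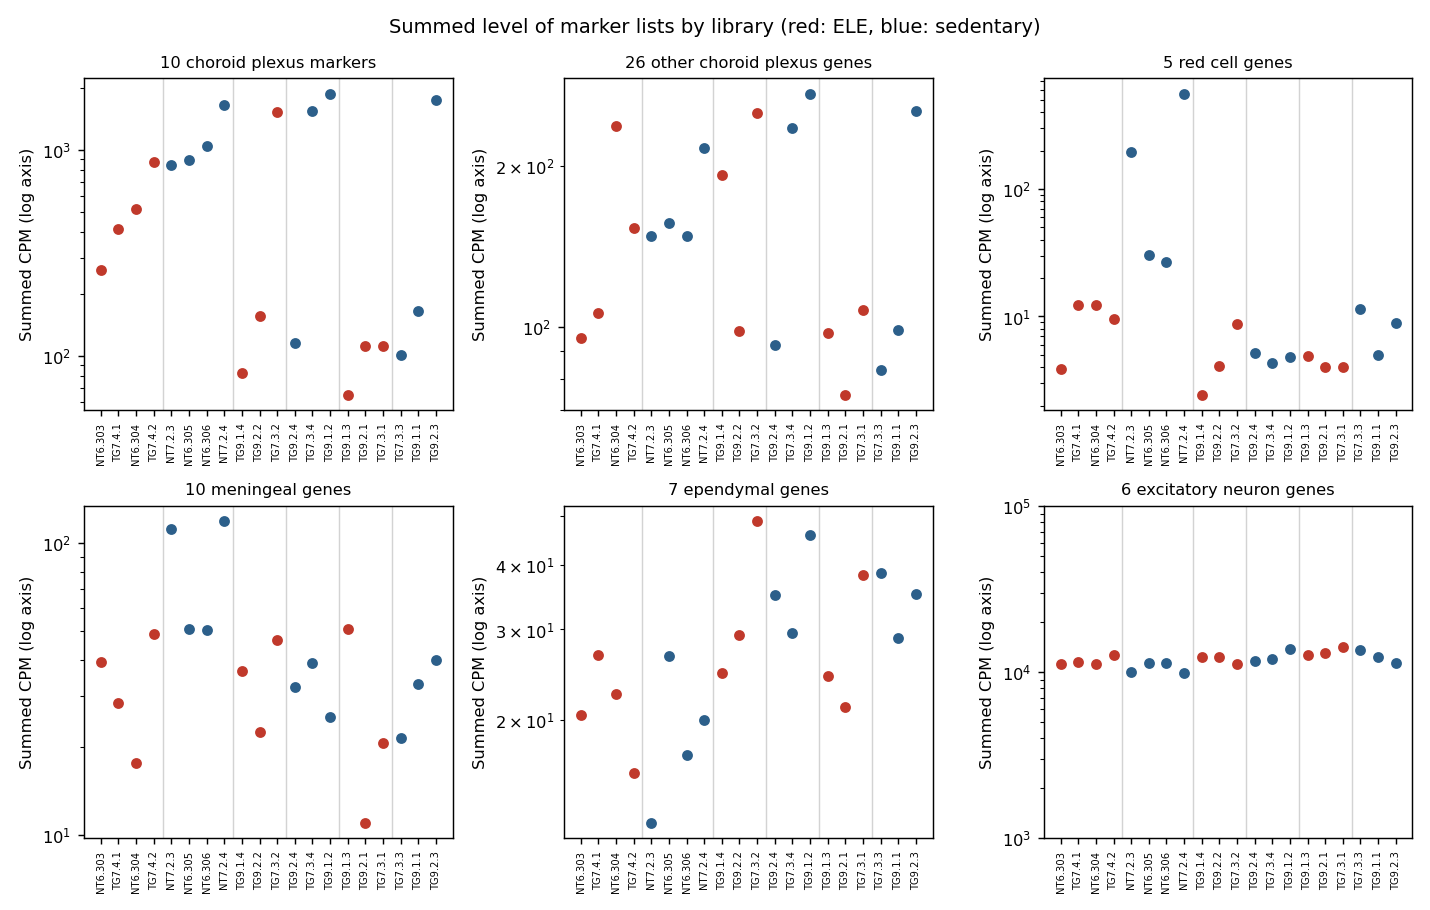
Summed level of marker lists (CPM, log axis) in each library, in the same order of libraries in every panel, with red for ELE and blue for sedentary and grey lines between groups. The choroid plexus markers span 64.6 to 1879 CPM, while the 6 excitatory neuron genes stay between 9915 and 14068 CPM.

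In the SIT comparison of 3 ELE with 2 sedentary libraries, 5 of the 10 markers were called lower in ELE, at an unadjusted p under 0.05 and a fold above 1.3, against 2.17% of the 18238 genes tested. The 5 were Folr1, Epn3, Clic6, Enpp2 and Kl, of which DESeq2 called the 4 other than Enpp2. The comparison had been used to choose the genes, so nothing is read from this count. In edgeR's quasi-likelihood test 0 genes of the table passed an adjusted p under 0.05, where 1000 had an unadjusted p under 0.05, and in DESeq2 18 genes passed, of which 0 were markers. The fitted log2 fold change of ELE against sedentary was -1.26 ± 0.48 (SE) for Folr1, -1.08 ± 0.36 for Epn3, -1.03 ± 0.48 for Ttr, -0.94 ± 0.35 for Clic6, -0.87 ± 0.46 for Aqp1, -0.76 ± 0.27 for Enpp2 and -0.55 ± 0.21 for Kl. It was -0.68 ± 0.53 for Otx2, -0.41 ± 0.31 for Prlr and 0.27 ± 0.87 for Kcnj13, whose sign turned without TG7.4.2 (-1.003 ± 0.87), with all 8 SIT libraries (-0.67 ± 0.66) and in the NT6 mice (-0.84 ± 0.77), none of them called. The median over the 10 was -0.81, and over all genes tested 0.00.

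Every compared ELE library lay below both sedentary ones for 7 of the 10 genes, against 11.7% of all genes tested. Ttr, Kcnj13 and Otx2 were not among the 7. For Ttr, TG7.4.2 with 530 CPM reached the level of NT6.305 with 528 CPM, Kcnj13 was at 1.81 CPM in TG7.4.2 and at 0.689 and 0.692 CPM in the 2 sedentary libraries, and Otx2 was at 2.59 CPM in TG7.4.1 and 1.85 CPM in NT6.306. Ttr had -1.90 ± 0.24 without TG7.4.2, where it was called, and -0.65 ± 0.35 without NT6.303, where it was not. Without TG7.4.2, 7 markers were called lower, and without NT6.305 only 1 was. Without NT6.303 or NT6.306 there were 3 and without TG7.4.1 there were 2. With all 8 SIT libraries the count was 6, Ttr among them, at -1.25 ± 0.41. When a block by the first part of the mouse number was added to these 8, after seeing the data, 3 were called, Ttr, Enpp2 and Clic6. Folr1, Epn3 and Kl were then no longer called. Among the 4 mice numbered NT6, which hold both groups, Ttr had -1.68 ± 0.39, Enpp2 -1.06 ± 0.24 and Clic6 -1.25 ± 0.40, while Prlr had 1.13 ± 0.65.

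Other markers moved with the same SIT contrast. Of the 26 other choroid plexus genes, 25 were tested, 6 were called lower and 23 had a log2 fold change below 0, with a median of -0.55. Leaving out 1 library gave 11 called without TG7.4.2, 3 without NT6.303, 2 without NT6.305 or TG7.4.1 and 1 without NT6.306. Of 5 red cell genes, 4 were called lower, with Hba-a1 at -1.90 ± 0.39 and Hbb-bs at -1.60 ± 0.43, and their summed level was 3.89 to 12.4 CPM in the 3 ELE and 26.6 and 30.6 CPM in the 2 sedentary libraries compared. It was 195 CPM in NT7.2.3 and 561 CPM in NT7.2.4, which were not in the comparison. Of 8 meningeal genes tested, 2 were called lower, and the summed level of the 10 on the list was 28.3 to 49.0 CPM in the ELE and 50.7 and 50.8 CPM in the sedentary libraries compared. Of 4 endothelial genes tested 0 were called and all 4 had a log2 fold change below 0, with a median of -0.62, and the list of 6 summed to 1.27 to 2.69 CPM in those ELE and 2.42 and 3.41 CPM in those sedentary libraries. For ependyma 0 of 7 genes were called, and for excitatory neurons 0 of 6, with medians of -0.37 and 0.10. What part blood, meninges, endothelium or carried-over choroid plexus had in the difference was not tested, and fewer choroid plexus cells and less RNA per cell cannot be told apart in bulk libraries.

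In the right hippocampus Ttr was lower in ELE by a fitted log2 fold change of -5.27 ± 1.44 (SE), against 3 ELE libraries at 2.25 to 19.6 CPM and 3 sedentary ones at 13.2 to 1067 CPM. Of the 10 markers, 9 passed the filter on low counts and 7 of those were called lower, against 1.25% of the 17570 genes tested, in a comparison that was also used to choose them. With DESeq2 4 of the 9 were called lower. At an adjusted p under 0.05, 0 genes of the table passed in edgeR's quasi-likelihood test, and 13 in DESeq2, of which 0 were markers. Aqp1 had -5.76 ± 1.29, Clic6 -3.44 ± 1.14, Folr1 -2.95 ± 0.83, Enpp2 -1.92 ± 0.71, Epn3 -1.90 ± 0.65 and Kl -0.80 ± 0.34. Otx2 with -2.13 ± 1.15 and Prlr with -0.87 ± 0.79 were not called. Kcnj13 was not fitted, with 0 counts in all 3 ELE libraries and 8, 10 and 123 counts in the sedentary ones, which makes it at least 16.2-fold lower in ELE when 3 counts per library are set as the floor, and at least 3.56-fold lower without TG9.2.3. The median of the 9 was -2.13, against 0.00 over all genes tested.

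These values turned on 1 library. Without TG9.2.3, the right sedentary library with 1067 CPM of Ttr, 2 of 9 markers were called lower and the median was -0.81. Ttr then had -1.80 ± 0.77 and Aqp1 -3.31 ± 1.23, and both were still called. Enpp2 had -0.12 ± 0.18 and Kl -0.20 ± 0.19, and Clic6 with -1.56 ± 1.12 and Folr1 with -1.41 ± 0.77 were no longer called. Every right ELE library lay below every sedentary one for 3 of the 9 markers tested, against 3.94% of all genes tested, and also for Kcnj13, which was not tested. Of the 26 other choroid plexus genes, 21 were tested and 10 were called lower with all libraries, with a median of -1.42. Without TG9.2.3 there were 0 of 21, with a median of -0.15, without TG9.1.3 there were 4, without TG7.3.1 there were 6 and without TG7.3.3 there were 16. Of 4 red cell genes tested 3 were called lower, and their list summed to 3.98 to 4.86 CPM in right ELE and 4.95 to 11.5 CPM in right sedentary libraries. Of 8 meningeal genes tested, Igf2 with -2.90 ± 1.02 and Col1a1 with -1.15 ± 0.43 were called lower, and the list summed to 11 to 50.7 CPM in ELE and 21.5 to 40.0 CPM in sedentary libraries. Of 6 endothelial genes Cldn5, with -2.45 ± 0.97, was called lower and all 6 had a log2 fold change below 0, while the list summed to 1.63 to 4.07 CPM in ELE and 1.73 to 28.4 CPM in sedentary libraries, the 28.4 in TG7.3.3. Their part in the difference was not tested.

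In the left hippocampus 0 of the 10 markers had an unadjusted p under 0.05 in edgeR's quasi-likelihood test or in DESeq2, and 0.980% of the 17750 genes tested were called lower, although all 10 had a log2 fold change below 0, with a median of -0.77. Ttr had -1.17 ± 1.74, Aqp1 -1.18 ± 1.53, Folr1 -0.96 ± 1.16 and Enpp2 -0.77 ± 0.92. The standard errors were larger than the differences for all 10 genes, since each group held both high and low libraries. Without TG7.3.2, the ELE library with 889 CPM of Ttr, 7 of 10 were called lower and the median was -3.15. No marker had all ELE libraries below all sedentary ones, against 5.85% of the genes tested. Of the 25 other choroid plexus genes tested on the left, 0 were called and 22 had a log2 fold change below 0, with a median of -0.63. Of 4 red cell, 8 meningeal and 5 endothelial genes tested there 0 were called, with 2, 4 and 2 below 0, Hba-a1 at 0.47 ± 0.44 and Col3a1 at 1.04 ± 1.04. The difference between the left and the right effect was not tested.

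**Figure D4:**
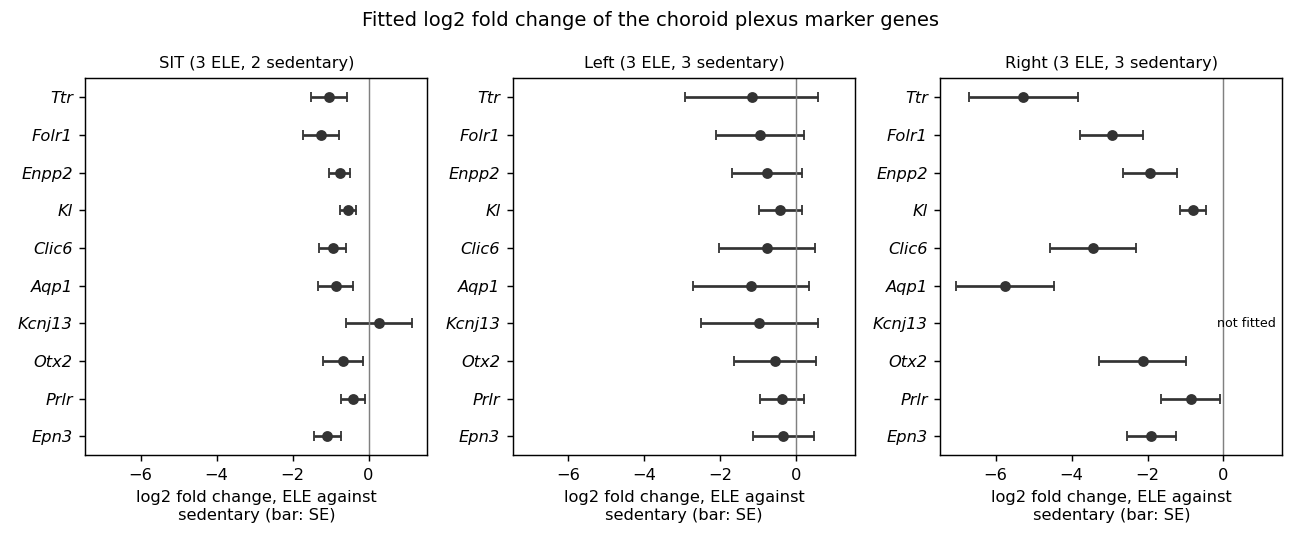
Fitted log2 fold change of ELE against sedentary (horizontal, bars are SE) for the 10 choroid plexus marker genes in SIT, left and right libraries. Points lie between -1.26 and 0.27 in SIT, between -1.18 and -0.33 on the left with bars that cross 0, and between -5.76 and -0.80 on the right, where Kcnj13 was not fitted.

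The first part of the mouse number (TG7.3, TG9.1 or TG9.2) gave 1 ELE and 1 sedentary mouse for each side, or 6 pairs. Ttr was lower in the ELE mouse in 4 of the 6. On the left the pair TG9.1 had 2.85 CPM in ELE and 1164 in sedentary, TG9.2 had 34.8 and 12, and TG7.3 had 889 and 943. On the right TG9.2 had 7.96 and 1067, TG9.1 had 2.25 and 55.4, and TG7.3 had 19.6 and 13.2. All 10 markers were lower in the ELE mouse of left TG9.1 and right TG9.1 and TG9.2, 3 of 10 were in left TG7.3, 1 of 10 in left TG9.2 and 5 of 10 in right TG7.3.

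**Figure D5:**
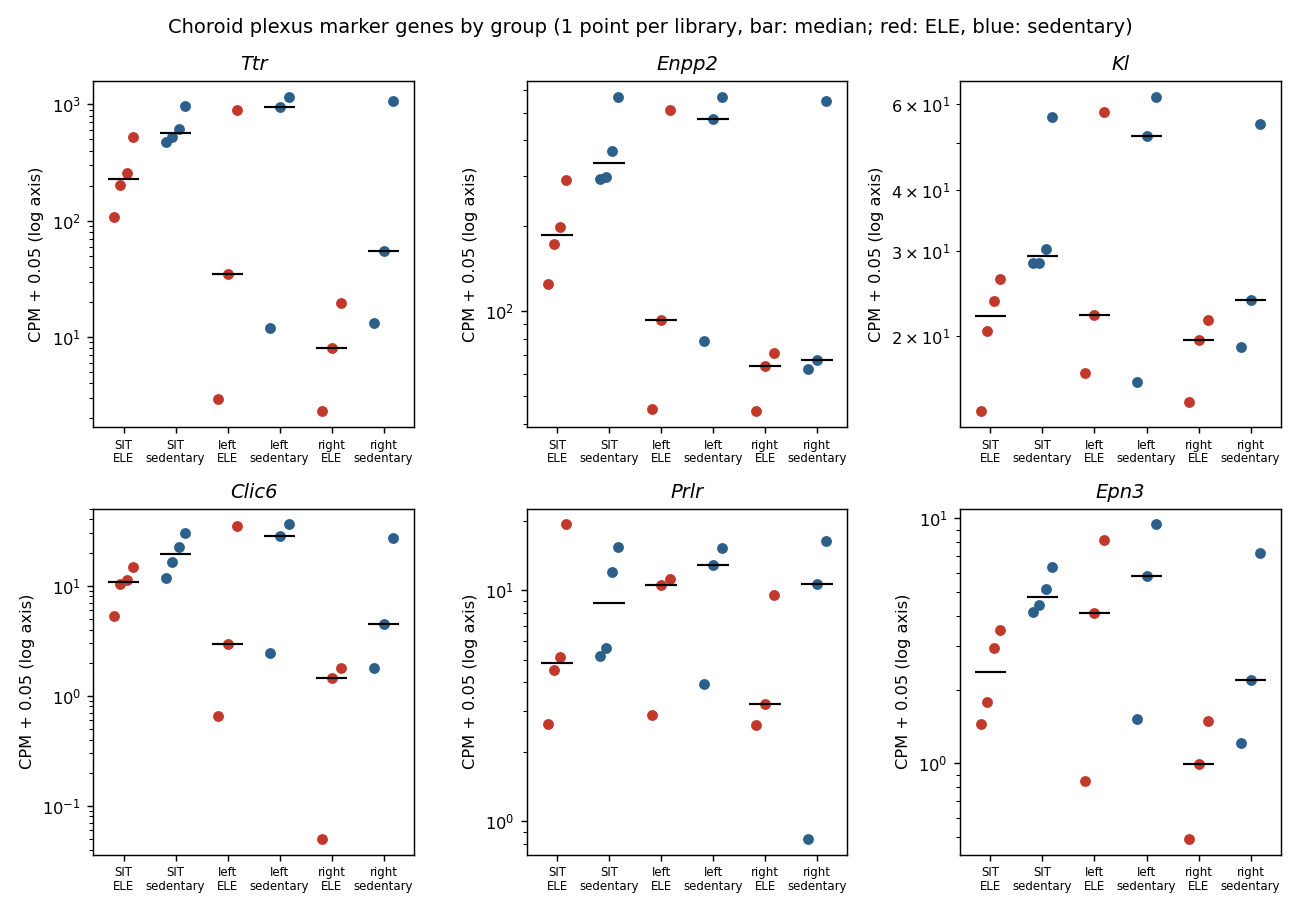
Level of 6 choroid plexus marker genes (CPM + 0.05, log axis) by group, with 1 point for each library, a bar at the median, red for ELE and blue for sedentary. In left ELE and right sedentary groups 1 of 3 libraries lies far above the other 2, and in left sedentary 2 of 3 lie far above the third, for Ttr, Enpp2, Kl and Clic6.

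Genes called lower in both the SIT and the right comparison, which share no library, numbered 30, or 0.175% of the 17182 genes tested in both, 7.59% of the 395 lower in SIT and 13.6% of the 220 lower on the right. Of these, 5 were markers (Clic6, Enpp2, Epn3, Folr1 and Kl), of 9 tested in both, but both comparisons were used to choose the markers and nothing is read from this count. Another 3, of 21 tested in both, stood on the list of other choroid plexus genes (Abca4, Mfrp and Tmem72). A further 3 were haemoglobin genes and 1, Igf2, was on the meningeal list. Among the 25 that were not markers, r with the markers' mean level was 0.76 to 0.98 for 6 genes, namely Tmem72, Mfrp, Abca4, Cdkn1c, Igf2 and Sgms2, and -0.19 to 0.47 for the other 19. Of the 19, 8 were annotated as pseudogenes, Rpl28-ps1 and Rps16-ps2 among them, whose counts may be shared with near-identical copies, and 11 as protein-coding genes. When TG9.2.3 was left out of the right comparison, 10 of the 30 were still called lower there, of which 0 were markers and 0 were on any marker list. In that fit 166 of the 18028 genes tested, or 0.921%, were called lower.

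The contrasts between sides and between isolations were not themselves used to choose the genes, and they were tested across the whole table. The genes were selected for rising and falling together over these same libraries, however. They are therefore not independent of one another, and nothing is read from how many were called. Over the 12 separate libraries, with exercise in the model, the markers had higher fitted levels on the left, with a median log2 fold change of 1.85 against 0.00 over all genes, but 0 passed an adjusted p under 0.05 in edgeR's quasi-likelihood test, and 0 did in DESeq2, where 4 had an unadjusted p under 0.05. Ttr had 2.88 ± 1.59 (SE, adjusted p = 1), with 3 of 6 left and 1 of 6 right libraries at 889 CPM or more. At the unadjusted call 2 of 10, Folr1 with 2.00 ± 0.85 and Epn3 with 1.41 ± 0.62, were higher on the left, against 0.691% of the 18810 genes tested. Without TG9.2.3 or TG9.2.4 there were 9, without TG9.1.4 there were 6 and without TG9.2.2 there was 1. Without any of TG7.3.1, TG7.3.2, TG7.3.3, TG9.1.1, TG9.1.2, TG9.1.3 or TG9.2.1, each left out on its own, there were 0.

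Between SIT and separate libraries 0 of the 10 were called in either direction, at an unadjusted p or an adjusted p under 0.05, where 10.1% of 20345 genes were called lower and 4.68% higher in SIT. Without TG7.3.2 there were 5 and without TG7.3.3 there was 1, and the median log2 fold change over the markers, 0.27 with all libraries of the fit, was 1.27 without TG7.3.2 and -0.10 without TG7.4.2. Ttr had 0.51 ± 1.10 (SE, adjusted p = 0.802 in edgeR's quasi-likelihood test), Enpp2 0.35 ± 0.57 (adjusted p = 0.730) and Prlr -0.79 ± 0.47 (adjusted p = 0.259). With errors of this size a difference of 2-fold in Ttr was not detectable. In this comparison, which used the 5 SIT libraries the study compared, Ttr ran from 108 to 619 CPM in SIT and from 2.25 to 1164 CPM in separate libraries.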

How the data were processed

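Whole-number counts per gene were deposited by the authors for 20 TRAP-seq libraries of 45895097 to 65767802 counts, made from reads aligned to GRCm38 with STAR 2.7.3a, with duplicates removed by Picard 1.87 and reads counted on exons with strand taken into account. No normalization was applied before deposit. A second table, of wild-type hippocampus with 24 columns, was not used here. Columns are named by mouse number, and groups came from the sample labels through the study's sample list. The SIT libraries that the study compared were found among 24 subsets by the mean counts it lists. The 10 markers and all gene lists were chosen with earlier results of these data known.

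Counts were scaled with TMM, filtered with filterByExpr and fitted over the whole table with edgeR 4.0.16 (quasi-likelihood, R 4.3.3), with DESeq2 1.42.0 as an alternative. Standard errors are the log2 fold change divided by the square root of F. A gene was called, after the study, at an unadjusted p under 0.05 and a fold above 1.3, and Benjamini-Hochberg adjusted values were computed over all genes. Log values use a pseudocount of 0.5, and a group at 0 was set to 3 counts per library. Exon lengths came from GENCODE. Genes could be named from the 10 markers, the 15 genes most like them, the list of 26 other choroid plexus genes and the marker lists, while the genes lower in both SIT and right libraries were named after their values were seen. Each library is 1 mouse, and p-values measure the spread between these mice. One gene of the list of other choroid plexus genes is not reported here by name.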

Additional observations from a re-analysis of the deposited data

Results flagged for a closer look

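Among the SIT libraries, which form groups of 4, Kl in the sedentary library NT7.2.4 stood apart from the other 3 of its group, with a gap of 0.905 of the group's range on the log2(CPM + 0.5) scale against Dixon's critical value of 0.829. It had 56.5 CPM there and 28.2, 28.3 and 30.1 CPM in the others. The same library had the highest Ttr, Enpp2, Folr1, Aqp1 and Otx2 of the SIT libraries and 9.64% of counts from mitochondrial genes, and the study did not use it in the comparison. Chance flags about 1 in 20 groups, and 1 of the 20 groups examined stood out here.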

How the results depend on the processing

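Counts of choroid plexus markers called depended on single libraries more than on the tool. Leaving out each library in turn gave 1 to 7 markers called lower in SIT (main count 5), 0 to 7 on the left (0) and 2 to 9 on the right (7), 0 to 9 higher on the left than on the right (2), and 0 to 5 called between SIT and separate libraries (0, with 5 reached without TG7.3.2 and 1 without TG7.3.3). The median log2 fold change over the markers ran from -3.15 to -0.29 on the left, from 0.87 to 2.69 for left against right, and from -0.10 to 1.27 for SIT against separate libraries, where -0.10, without TG7.4.2, was a reversed sign. For the 26 other choroid plexus genes the counts were 1 to 11 lower in SIT, 0 to 16 on the left, 0 to 16 on the right, 0 to 18 higher on the left than on the right and 0 to 1 between SIT and separate libraries. Their medians ran from -2.29 to -0.20 on the left and from 0.33 to 1.89 for left against right, and for SIT against separate libraries from -0.25 to 0.46, the sign turning without TG7.3.2. Where 1 library was left in a group, it was assumed to vary like the other group.

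At an adjusted p under 0.05, 0 markers and 0 other choroid plexus genes were called in SIT, on the right or between sides. With DESeq2, 4 markers were called lower on the right and 4 were higher on the left than on the right, and of the other list 1 was called lower on the left and 3 were higher on the left than on the right. Without the filter on low counts 9 markers and 17 genes of the other list were higher on the left than on the right, and 1 of the other list was lower on the left. With all 8 SIT libraries 13 of the other list were called lower in ELE, and within the mice numbered NT6, a comparison chosen after seeing the data, 3 markers were. Alternatives for the other list were also added after seeing the data. The cause of these shifts was not tested.

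A replicate block by the first part of the mouse number gave 1 marker lower on the left, 6 on the right and 1 higher on the left than on the right, and for the other list 1, 5 and 0. Deviations from the group means correlated between -0.09 and 0.21 over the 6 pairs, with 3 above 0.1, so the mice were treated as unpaired. In SIT the same block, added after seeing the data, gave 7 markers called lower with a median of -1.46 and 10 of the other list with a median of -1.22, where within NT6 a single ELE library was compared, and 3 markers with all 8 libraries. The SIT columns carry no replicate number of the labels, so a block by that number was not run. Unscaled CPM gave 510-fold for the range of Ttr, and 14 or 15 of the 15 genes most like the markers remained among the 15 highest under each of 3 other rankings. With 2 or 3 libraries a group, differences below the spread between mice were not detectable.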
